A study of Mus musculus with 2 samples.

Results

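The genes described here are the clustered histone genes of the mouse, taken as every gene of the deposited tables whose symbol begins with Hist1h, Hist2h, Hist3h or Hist4h. This gave 67 of the 31053 genes. Of these, 54 belong to the large Hist1 cluster on chromosome 13, 10 to Hist2, 2 to Hist3 and 1 to Hist4. By protein, 6 encode linker histones (H1), which bind the DNA where it enters and leaves the nucleosome. The other members encode the core histones around which DNA is wrapped, with 18 for H2A, 18 for H2B, 12 for H3 and 13 for H4.

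Their values were read from single-cell RNA sequencing of mouse bone marrow. The cells were sorted as positive for E-cadherin and either positive (cKIT+) or negative (cKIT-) for cKIT, and each population gave 1 library. E-cadherin is an adhesion molecule of epithelia that in mouse marrow also marks cells of the basophil lineage, and cKIT is a receptor tyrosine kinase carried by early progenitors and mast cells. The labels give the strain FVB for both libraries, and the study describes the donors both as wild-type and as Vav-iCre;mTmG, a line in which a Cre driven by the blood cell promoter Vav switches on a fluorescent reporter, so any such allele would be shared by both groups. The age of the mice is not given in the sources used here.

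After the filter used in the study, 6479 of 6632 E-cadherin+cKIT+ cells and 3662 of 3745 E-cadherin+cKIT- cells were kept. They held 91108781 and 22869169 unique molecular identifiers (UMIs, each counting 1 captured RNA molecule), with medians of 13039 and 4416.5 UMIs per cell. Levels are given in CPM, which sets the count of a gene against all UMIs of the cells concerned. Kit itself lay at 37.1 CPM in the cKIT+ library and at 0.875 CPM in the cKIT- library, as the sort would have it. Cdh1, the gene of E-cadherin, lay at 62.8 and 193 CPM. The basophil protease Mcpt8 lay at 11085 and 26187 CPM. Cells with basophil genes, here and below, had at least 1% of their UMIs from genes of that lineage and under 5% from markers of other lineages. They made up 47.7% of cKIT+ and 75.8% of cKIT- cells. Cells of other kinds were taken at 1% or more of their own markers, without that second limit. A cell could thus fall into more than 1 of these groups, and the overlap was not counted. Dendritic cells were taken by H2-Aa, H2-Ab1 and Cd74 alone, so B cells with these genes would be among them. The cKIT+ library also held cells with genes of granulocyte and monocyte progenitors (20.2% of cells), neutrophils (6.54%) and red cells (0.942%), and the cKIT- library cells with genes of B cells (6.03%) and dendritic cells (5.76%). Of the cell barcodes, 10 occurred in both libraries. Since each population was sequenced as 1 library, the sort and the library cannot be told apart, and p-values are not given because no test between them can be made. All intervals are exact 95% intervals that cover counting error only.

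Most clustered histone genes are transcribed while DNA is copied, so that new nucleosomes can be assembled on the daughter strands. Their mRNAs are unlike other mRNAs in that they usually have no poly(A) tail and instead end shortly after a conserved stem-loop, which is bound by the protein SLBP. Some members also make polyadenylated transcripts that run past the stem-loop, and these can be kept in cells that are not dividing. The library chemistry used here primes on poly(A), so the UMIs count what that chemistry captured of each gene. Counts of different members are therefore compared only as captured UMIs, not as amounts of mRNA.

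The stem-loop is shown for members whose levels differed in the ways described further on. Capitals mark the 16 bases of the stem-loop, with 6 bases in each arm of the stem and 4 in the loop, and the coordinates are those of the capitals in GRCm38 (the build called mm10), as annotated by GENCODE. Each line reads 5′ to 3′ along the transcript.

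Hist1h1c, chr13:23739512-23739527, plus strand: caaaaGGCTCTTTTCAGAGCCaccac
Hist1h2ac, chr13:23683477-23683492, minus strand: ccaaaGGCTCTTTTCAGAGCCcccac
Hist1h4i, chr13:22040966-22040981, minus strand: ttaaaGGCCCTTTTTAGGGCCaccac
Hist1h1e, chr13:23621782-23621797, minus strand: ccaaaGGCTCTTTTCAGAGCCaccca
Hist1h2ae, chr13:23570668-23570683, minus strand: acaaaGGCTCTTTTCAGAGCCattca
Hist1h3f, chr13:23544932-23544947, plus strand: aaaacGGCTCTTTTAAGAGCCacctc
Hist1h3c, chr13:23745047-23745062, minus strand: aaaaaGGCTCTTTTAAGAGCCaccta
Hist1h2bm, chr13:21722506-21722521, plus strand: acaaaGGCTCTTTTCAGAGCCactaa

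The arms and the loop differed little between these genes, whereas the annotated transcript after them differed widely. It continued for 840 bases in Hist1h1c, 2010 in Hist1h2ac, 330 in Hist1h4i and 1153 in Hist1h1e, for 151 in Hist1h2ae and 365 in Hist1h3f, and for only 74 in Hist1h3c and 46 in Hist1h2bm. A stem-loop was found in the representative transcript, the longest protein-coding one, of 45 of the 67 members (67.2%). With any protein-coding transcript searched, it was found in 144 of 21901 protein-coding genes (0.658%), among them 46 members. Some annotated transcripts stop right after the coding part, where a later stem-loop would be missed. The commonest form, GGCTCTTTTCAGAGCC, stood in 25 members of the H1, H2A, H2B and H3 families. H4 genes carried other letters, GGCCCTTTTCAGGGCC in 7 and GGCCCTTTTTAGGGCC in 2.

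The 120 bases before the start of transcription are shown for Hist1h1b, the member with the most UMIs, for Hist1h1c and Hist1h2ac, which were also read in cells without proliferation markers, and for Hist1h2bm, which was nearly confined to cells with them. They are taken from RefSeq promoters on GRCm38.p6, 5′ to 3′ along the gene's strand. Capitals mark CCAAT, the binding sequence of the factor NF-Y, the TATA element TATAAA, and the octamer ATTTGCAT, on either strand (ATTGG is CCAAT on the other strand).

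Hist1h1b, chr13:21780626-21780745, minus strand: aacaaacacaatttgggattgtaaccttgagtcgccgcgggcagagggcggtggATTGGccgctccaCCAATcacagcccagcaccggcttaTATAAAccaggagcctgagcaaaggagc
Hist1h1c, chr13:23738687-23738806, plus strand: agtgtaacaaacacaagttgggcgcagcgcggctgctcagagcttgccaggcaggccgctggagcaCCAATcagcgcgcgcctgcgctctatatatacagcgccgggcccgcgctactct
Hist1h2ac, chr13:23683960-23684079, minus strand: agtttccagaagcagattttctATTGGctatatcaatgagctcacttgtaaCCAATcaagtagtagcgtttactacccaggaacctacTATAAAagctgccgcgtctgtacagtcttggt
Hist1h2bm, chr13:21721924-21722043, plus strand: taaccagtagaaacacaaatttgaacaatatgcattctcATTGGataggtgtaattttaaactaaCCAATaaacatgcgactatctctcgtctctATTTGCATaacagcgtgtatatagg

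Over the 250 bases before the start, CCAAT stood in 82.5% of the 63 member promoters in the table, which belong to 62 members, against 33.8% of all 32851 promoters. TATAAA stood in 46.0% against 12.4%, and the octamer in 22.2% against 1.60%. The octamer was found in 7 of 18 H2A and 7 of 17 H2B promoters and in 0 of H1, H3 and H4. Some H2A and H2B promoters overlap, as those of Hist1h2ae and Hist1h2bg do, so the same site can count for both genes. H4 promoters had CCAAT in 3 of 12. A match is a description of the letters and does not show that a factor bound there.

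Dividing cells were told from other cells by Mki67, which encodes the proliferation antigen Ki-67, and Top2a, the topoisomerase that untangles replicated chromosomes. A cell with at least 1 UMI of either gene is called marked. In the cKIT+ library 4164 of 6479 cells were marked (64.3%, 63.1 to 65.4), and in the cKIT- library 1201 of 3662 (32.8%, 31.3 to 34.3). After thinning of every cell to 2000 UMIs, with 345 and 176 shallower cells dropped, the shares were 45.0% and 25.4%. Cells of the cKIT- library with B cell genes were marked in 2.26% (1.90% thinned). The marked cells were the deeper ones, with medians of 16466.5 against 8717 UMIs in the cKIT+ library and 10406 against 3398 UMIs in the cKIT- library, so a cell without a UMI of either gene is not thereby a resting cell.

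All members together reached 1581 CPM (1573 to 1589) in the cKIT+ library and 1317 CPM (1302 to 1332) in the cKIT- library, which makes the cKIT+ sum 1.20 times as high (1.19 to 1.22). Without Hist1h1b, the most abundant member, the sums were 1094 and 1131 CPM, a ratio of 0.968. In summed counts of this kind, fewer cells of a type and less RNA per cell cannot be told apart. Between marked and unmarked cells the difference was larger, with 1915 against 361 CPM in the cKIT+ library (ratio 5.30, 5.17 to 5.43) and 1991 against 497 CPM in the cKIT- library (ratio 4.01, 3.89 to 4.13). As a part of all UMIs, the cKIT+ over cKIT- ratio was 0.962 (0.949 to 0.975) in marked and 0.728 in unmarked cells. Per cell the order was the other way, with 32.9 member UMIs in a marked cKIT+ cell against 20.8 in a marked cKIT- cell, and 3.05 against 2.08 in unmarked cells. UMIs per cell also move with sequencing depth, and the study reports more reads per cell for the cKIT+ library. These values therefore do not show more histone RNA in a cKIT+ cell.

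Hist1h4m had 0 UMIs in both libraries, and 4 members, Hist1h4m among them, had 0 in the cKIT- library. At least 100 UMIs were reached by 48 members in the cKIT+ library and by 28 in the cKIT- library. The 25 members with the highest levels held 95.2% and 93.7% of all member UMIs, and no cell held more than 4.08% of the UMIs of any member with 100 or more. Reads of near-identical members are hard to assign. Of the stretches of 56 bases in the last 400 bases of each transcript, all were unique to the gene in 18 members and none in 7, and in 37 members under 50% were. Hist1h1b, Hist1h1c, Hist1h2ac, Hist1h4d, Hist1h4i and Hist3h2a were among those with every stretch unique. The values of Hist1h1e, which had no unique stretch and overlaps Hist1h2be on the same strand, and of Hist1h2be are uncertain to that extent, and so are those of Hist1h2ap and Hist2h3c1, with no unique stretch, Hist1h3f and Hist1h3e, with 14.8% and 15.9% unique, and Hist1h2ab, Hist1h3c, Hist1h4h, Hist1h2bj and Hist2h2bb, with under 50%. In Hist1h2ak and Hist1h2ae 53.8% and 56.8% were unique. Hist3h2a overlaps Trim17 and Hist1h2ac overlaps Gm24991 on the same strand.

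**Figure D1:**
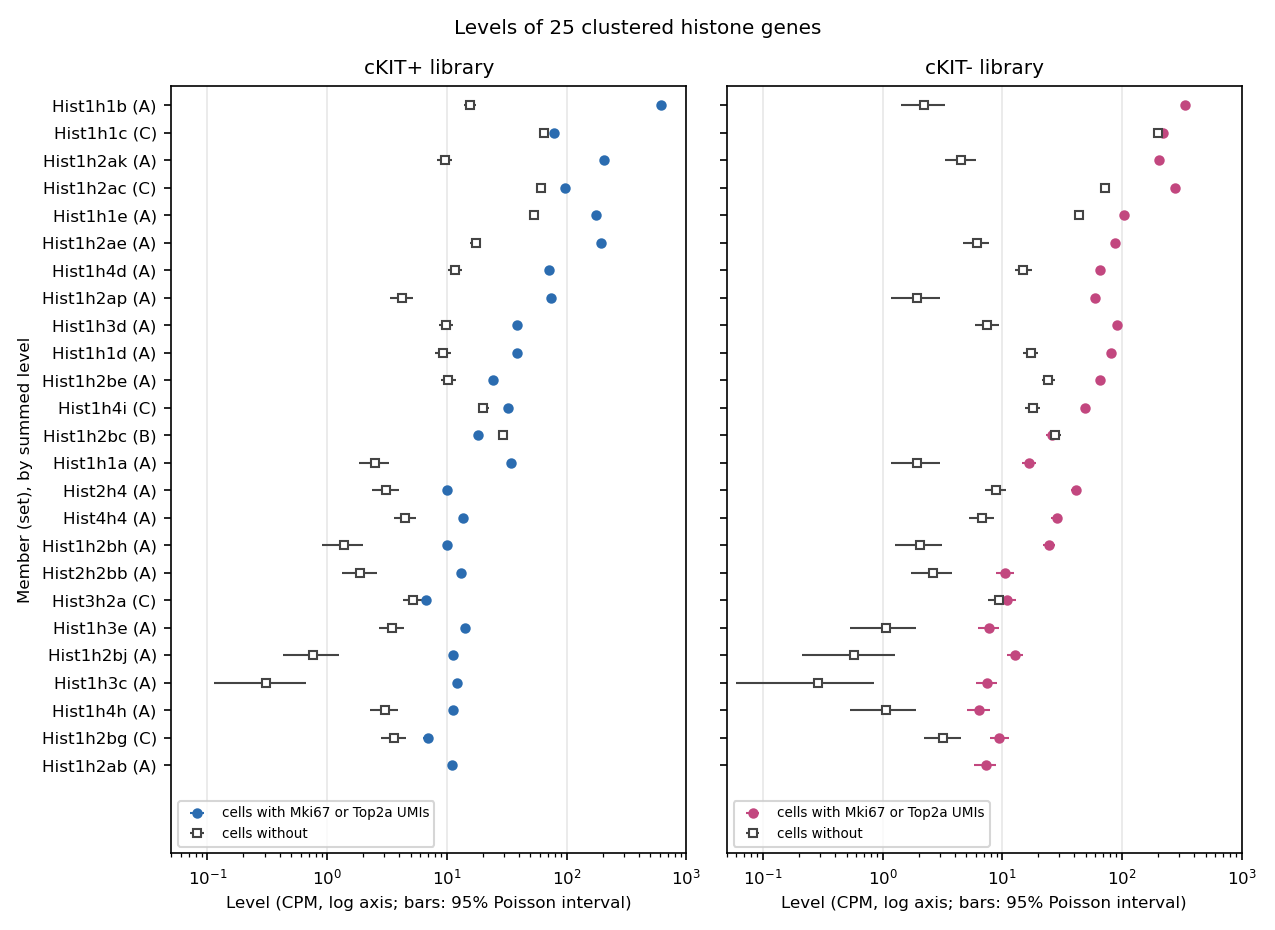
Levels of the 25 highest members in marked and unmarked cells of each library, in CPM on a log axis, with bars for the 95% Poisson interval. In the cKIT+ library Hist1h1b stands at 616 CPM in marked and 15.7 CPM in unmarked cells, whereas Hist1h1c stands at 78.9 and 65.4 CPM.

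Members were separated by their ratio of marked to unmarked cells in the cKIT+ library, where at least 100 UMIs were required. Of the 48 members that reached this number, 42 were at least 2-fold higher in marked cells (set A), 1 was at or below a ratio of 1 (set B, Hist1h2bc) and 5 lay between (set C, Hist1h1c, Hist1h2ac, Hist1h4i, Hist3h2a and Hist1h2bg). The remaining 19 members were too few in UMIs to be placed. Among all 11240 genes with 100 UMIs in this library, 4.23% were at least 2-fold higher in marked cells and 5.14% at least 2-fold lower. The last member below the limit was Hist1h2bg at 1.91, and the first above it were Hist1h2be at 2.35 and Hist1h4c at 2.54. The median ratio was 6.66 over the 48 members and 0.961 over all genes. These values made the sets and are given as a description. A member that has 100 UMIs only through the marked cells had to be high there, so the counts do not speak for the 19 members left out.

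The cKIT- library was not used for the sets. There, 24 of 28 members with at least 100 UMIs were at least 2-fold higher in marked cells, against 8.97% of 9123 genes, and 0 were at least 2-fold lower, against 7.18%. The median ratio was 5.17 over the members and 0.984 over all genes. Of the 22 set A members among them, 21 were at least 2-fold higher in marked cells. The exception was the H2A gene Hist2h2ac, at 1.48 (1.01 to 2.18). Of the 6 members of sets B and C, 3 were also past 2-fold in this library (Hist1h2ac, Hist1h4i and Hist1h2bg), and 3 were not (Hist1h1c, Hist3h2a and Hist1h2bc). The other 20 set A members had under 100 UMIs in this library and were not compared there. Here too, a member with 100 UMIs only through the marked cells had to be high in them. The counts are thus a description and do not speak for the members left out.

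**Figure D2:**
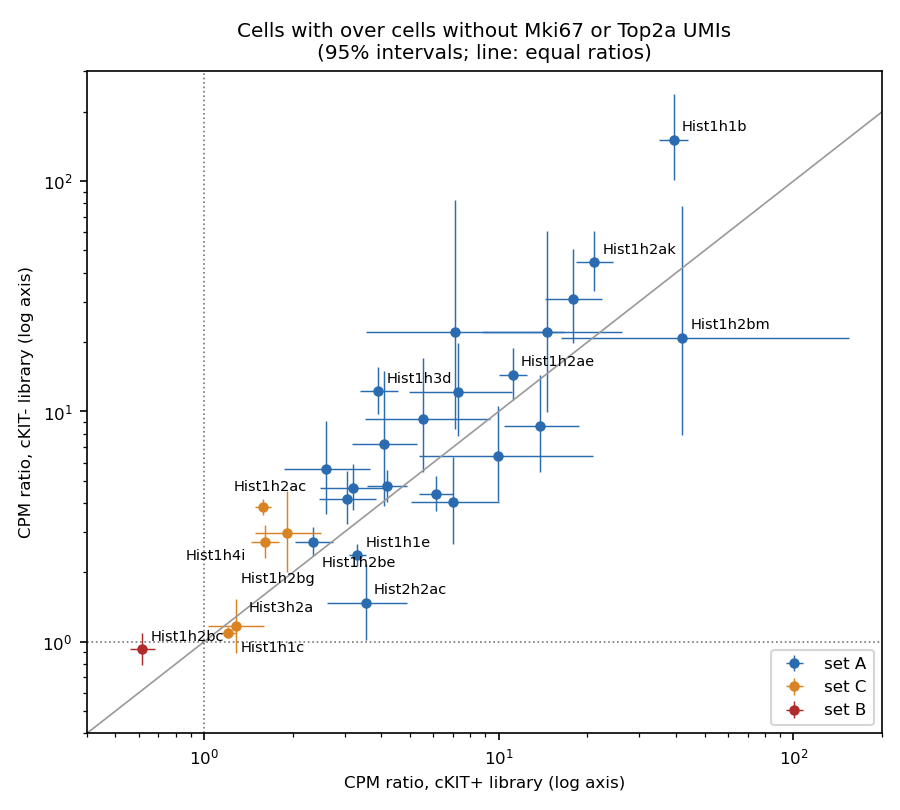
Ratio of marked over unmarked cells for members in the cKIT+ library (horizontal, log axis) and the cKIT- library (vertical, log axis), with 95% intervals and a line of equal ratios. Hist1h1b lies at 39.3 and 151, Hist1h1c near 1 in both, and Hist1h2ac at 1.58 and 3.83.

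Summed over its genes, set A reached 1665 CPM in marked and 174 CPM in unmarked cells of the cKIT+ library (ratio 9.56, 9.24 to 9.89), and 1384 and 163 CPM in the cKIT- library (8.49, 8.07 to 8.93). Sets B and C together reached 241 and 186 CPM (1.30, 1.25 to 1.34), and 593 and 332 CPM (1.79, 1.72 to 1.86). In unmarked cells these 6 genes gave 51.4% of what was read of all members in the cKIT+ library, and 66.8% of it in the cKIT- library. In marked cells they gave 12.6% and 29.8%. The sets were made from the cKIT+ ratios, so in that library the direction of these contrasts was fixed and they are a description only. The cKIT- values were not used for the sets. Hist1h1c, Hist1h2ac and Hist1h1e, picked as the 3 highest in unmarked cells, alone gave 49.9% and 63.8% of what was read of all members there. In marked cells too a large part came from few members, since those other than Hist1h1b gave 67.8% and 83.0%.

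Among the linker histones, Hist1h1b, which encodes H1.5, was the most abundant member and one of the most unequal. Its level in the cKIT+ library was 616 CPM in marked and 15.7 CPM in unmarked cells, which is 39.3 (35.1 to 44.1) times as much. In the cKIT- library it was 338 CPM in marked cells and 2.23 CPM, from 23 UMIs, in unmarked cells, a ratio of 151 (101 to 239). Of its UMIs, 99.3% and 99.5% lay in marked cells. With cells thinned to 2000 UMIs and marked again at that depth the ratios were 11.6 and 40.8. Unmarked cells with B cell genes and unmarked cells with dendritic cell genes in the cKIT- library had 0 UMIs of Hist1h1b, with upper limits of 5.99 and 5.44 CPM. These groups can share cells.

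Hist1h1c, which encodes H1.2, hardly differed between marked and unmarked cells. It lay at 78.9 and 65.4 CPM in the cKIT+ library (ratio 1.21, 1.14 to 1.28) and at 219 and 201 CPM in the cKIT- library (1.09, 1.03 to 1.16). Of its UMIs, 57.1% were in marked cells of the cKIT- library. The other linker histones lay between these extremes. Hist1h1e (H1.4) had ratios of 3.32 (3.11 to 3.53) and 2.38 (2.13 to 2.65), Hist1h1d (H1.3) of 4.17 and 4.74, and Hist1h1a (H1.1) of 13.9 (10.4 to 18.8) and 8.66. The sixth, the testis gene Hist1h1t, had under 100 UMIs in each library.

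The makeup of the linker histone UMIs changed accordingly. Hist1h1b gave 65.1% of them in marked cKIT+ cells and 10.7% in unmarked ones, whereas Hist1h1c gave 8.35% and 44.7%. In the cKIT- library Hist1h1b went from 44.4% in marked to 0.839% in unmarked cells, and Hist1h1c from 28.9% to 75.4%. In both libraries, then, Hist1h1b led the family in marked cells and Hist1h1c in unmarked cells.

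Among H2A genes, Hist1h2ak, Hist1h2ae and Hist1h2ap followed the marked cells and Hist1h2ac did so in part. Hist1h2ak lay at 204 and 9.66 CPM in marked and unmarked cKIT+ cells (21.1, 18.3 to 24.5) and at 203 and 4.56 CPM in the cKIT- library (44.5, 33.4 to 60.8). Hist1h2ae lay at 194 and 17.4 CPM (11.2, 10.0 to 12.5) and at 88.1 and 6.11 CPM (14.4, 11.2 to 18.9). Hist1h2ap had ratios of 17.9 and 30.9. Hist1h2ac lay at 97.4 and 61.5 CPM (1.58, 1.49 to 1.68) in the cKIT+ library, but at 278 and 72.6 CPM (3.83, 3.54 to 4.15) in the cKIT- library, where it thus joined the genes that were higher in marked cells. Hist3h2a, an H2A gene of the Hist3 cluster, was level, with ratios of 1.28 (1.03 to 1.60) and 1.17 (0.894 to 1.53). Hist1h2ab had 0 UMIs in unmarked cells of either library and was at least 72.2-fold and at least 24.9-fold higher in marked cells, taking 3 counts as the limit that a count of 0 allows.

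H2B genes held the lowest ratio of all. Hist1h2bc lay at 18.3 CPM in marked and 29.6 CPM in unmarked cKIT+ cells, a ratio of 0.617 (0.559 to 0.681), and at 25.9 and 27.8 CPM in the cKIT- library, where the ratio of 0.930 (0.791 to 1.09) had an interval that included 1. With marked cells required to hold at least 3 UMIs of Mki67 and Top2a the cKIT+ ratio was 0.449, and without cells that carried 0.5% or more of their UMIs from markers of other lineages it was 0.764. In the cKIT- library the same changes gave 0.626 and 1.35, so the direction there was not settled. The 0.5% limit left out 4727 of 6479 cKIT+ and 1005 of 3662 cKIT- cells. Hist1h2bg, with ratios of 1.91 (1.49 to 2.49) and 2.96 (2.00 to 4.50), lay on either side of the limit. The other abundant H2B genes were higher in marked cells, Hist1h2be by 2.35 and 2.71, Hist1h2bh by 7.25 and 12.1, Hist2h2bb by 7.01 and 4.04, and Hist1h2bj by 14.6 and 22.0. Hist1h2bm, whose promoter is printed above, had 42.0 (16.3 to 155) and 20.9, from 4 UMIs in unmarked cells of each library.

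All 9 H3 genes with at least 100 UMIs in the cKIT+ library were at least 2-fold higher in marked cells, against 4.23% of all genes. So were all 4 in the cKIT- library, against 8.97%. A gene that reached 100 UMIs only through the marked cells had to be high there, so these counts are a description. Hist1h3d, the most abundant, lay at 38.5 and 9.86 CPM (3.90, 3.37 to 4.54) and at 91.4 and 7.47 CPM (12.2, 9.71 to 15.6). Hist1h3c had ratios of 39.9 and 25.4 and Hist1h3e of 4.07 and 7.24. None of these H3 genes stood level between the cell classes.

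Of the 9 H4 genes with enough UMIs in the cKIT+ library, 8 were past 2-fold, against 4.23% of all genes. In the cKIT- library 5 of 5 were, against 8.97%, and these counts too are a description. Hist1h4d, the most abundant, had ratios of 6.12 and 4.40, Hist2h4 of 3.21 and 4.66, Hist4h4 of 3.05 and 4.19, and Hist1h4h of 3.75 and 5.97. The exception in the cKIT+ library was Hist1h4i at 1.61 (1.44 to 1.79), which reached 2.72 (2.30 to 3.22) in the cKIT- library. Since all H4 genes encode the same protein, these ratios separate genes and not proteins.

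The sizes of the larger ratios moved with depth, more than their intervals show. With cells thinned to 2000 UMIs and marked again, the cKIT+ ratios were 7.29 for Hist1h2ak, 6.63 for Hist1h2ae, 7.72 for Hist1h2ap, 5.84 for Hist1h1a, 4.53 for Hist1h2bh, 6.59 for Hist1h2bj, 12.6 for Hist1h3c and 7.06 for Hist1h2ab, all lower than at full depth. The cKIT- values were 25.1 for Hist1h2ak and 4.63 for Hist1h3e, while Hist1h2bj and Hist1h3c, with few UMIs, had 51.5 and 55.9. All of these genes remained at least 2-fold higher in marked cells.

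The 19 members under 100 UMIs in the cKIT+ library summed to 7.29 CPM there and to 8.83 CPM in the cKIT- library. Taking all members with at least 30 UMIs in a library, 5 members in the cKIT+ library (Hist1h2ab, Hist1h2af, Hist1h2bn, Hist1h2an and Hist1h4k) and 6 in the cKIT- library (Hist1h2ab, Hist1h2bl, Hist1h3g, Hist1h2af, Hist1h3i and Hist1h2bk) had 0 UMIs in unmarked cells. With 3 counts as the limit of a count of 0, they were at least 7.75-fold higher in marked cells of the cKIT+ library (Hist1h4k) and at least 10.1-fold in the cKIT- library (Hist1h3i). Having been picked for 0 UMIs in unmarked cells, these members had to show high ratios, so the limits are a description only. The share of all genes with such counts was not taken.

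The length of the annotated transcript beyond the stem-loop went with these ratios. In 23 members the transcript continued for over 100 bases after it, and 21 of them had at least 100 UMIs in the cKIT+ library, with a median ratio of 3.90 and a lowest ratio of 1.21. In 22 members it ended within 100 bases, and the 13 with enough UMIs had a median of 17.9 and a lowest ratio of 2.59. The other 22 had no stem-loop in the representative transcript, and 14 of them gave a median of 13.8. Several of these annotated transcripts stop right after the coding part, as in Hist1h2ak with 390 coding bases of 393. A stem-loop beyond that end could not be found, so these genes may not lack it. Of the 6 genes of sets B and C, 5 were among the first kind, 0 among the second and 1, Hist1h2bc, among the third. The genes were placed in these kinds from the annotation alone, the values used for the sets are the same as those summarised here, and members under 100 UMIs are missing from the medians. How far capture by a poly(A) primer moved with transcript ends was not tested.

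**Figure D3:**
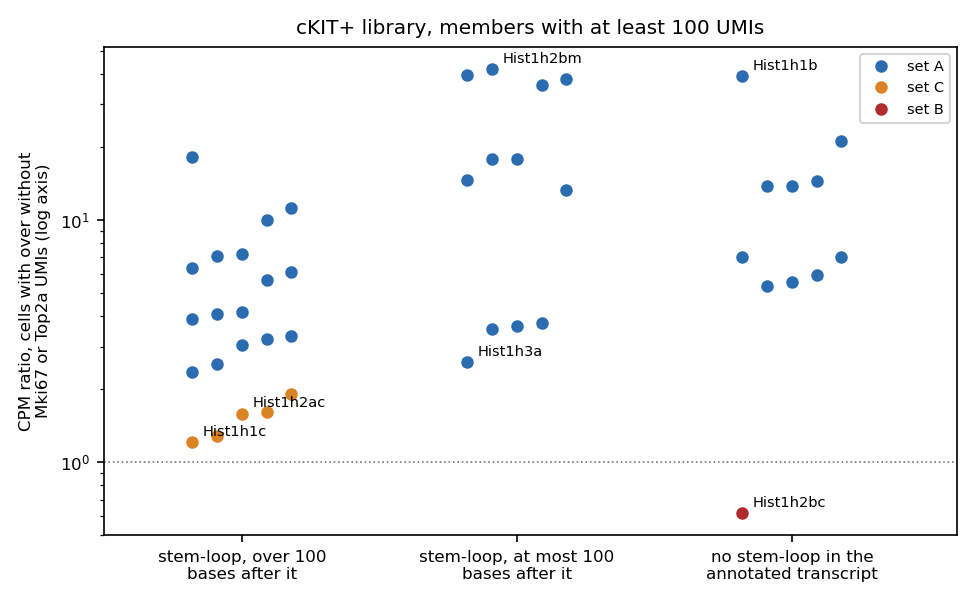
Ratio of marked over unmarked cells in the cKIT+ library (log axis) by kind of annotated transcript end, 1 point for each of the 44 members with at least 100 UMIs and a ratio that is finite. The 5 genes of sets B and C with a stem-loop lie in the first column, where over 100 bases follow it.

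The time within the cell cycle was followed in marked cells with at least 10 UMIs from 2 fixed lists, 23 genes of DNA replication such as Mcm2 and Pcna (S list) and 26 genes of mitosis such as Ccnb1 and Plk1. The cells were ordered by the mitosis list's share of the UMIs of both lists and cut into 5 bins of equal size, 767 or 768 cells a bin in the cKIT+ library and 220 or 221 in the cKIT- library. No clustered histone gene was used for this order. Bins were cut within each library, so the same bin number need not be the same place in the cycle in both. All members together stood at 239, 831, 2918, 3016 and 2362 CPM from bin 1 to bin 5 in the cKIT+ library and at 315, 1628, 2777, 3200 and 2116 CPM in the cKIT- library. The sum was thus highest in bins 3 and 4. The S list peaked in bin 2 in both libraries, at 3207 and 3783 CPM. Since the 2 lists set the order, an early peak of the S list and a late one of the mitosis list are built into it.

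Set A gave most of that rise. It went from 153 CPM in bin 1 to 2684 and 2678 CPM in bins 3 and 4 and 1929 CPM in bin 5 of the cKIT+ library, and from 183 to 2133, 2203 and 1309 CPM in the cKIT- library. Sets B and C rose less and later in the cKIT+ library, from 84.9 over 223 and 325 to 420 CPM in bin 5. In the cKIT- library they stood at 130, 625, 971 and 790 CPM in the same bins. Bin 4 exceeded bin 1 by 17.6 and 12.1 times in set A and by 3.83 and 7.48 times in sets B and C. Of the 48 members with at least 100 UMIs in the cKIT+ library, 0 were highest in bin 1, 1 in bin 2, 10 in bin 3, 17 in bin 4 and 20 in bin 5. In the cKIT- library the counts were 0, 2, 7, 17 and 2 over the 28 members with at least 100 UMIs. The same count was not made over all genes, so these counts describe the members only. They cannot be set against each other between the libraries, since the bins were cut within each.

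Single genes differed in when they were highest. Hist1h1a had its highest value in bin 3 of the cKIT+ library, at 77.3 CPM, the same bin as Hist1h1b. In the cKIT- library Hist1h1a was highest in bin 2, at 33.0 CPM, where the interval overlapped that of bin 3. Hist1h1a stood at only 11.5 and 5.67 CPM in bin 5. Hist1h1b stood at 20.3, 256, 1086, 1020 and 638 CPM in the cKIT+ library and at 24.3, 337, 611, 499 and 251 CPM in the cKIT- library. Both genes were past their highest value before bin 5, which by its making has the largest mitosis-list share. Hist1h1c, in contrast, stood at 28.1, 33.1, 76.8, 110 and 133 CPM and at 49.6, 150, 223, 340 and 299 CPM. Hist1h2ac stood at 28.9, 38.3, 76.6, 129 and 197 CPM and at 57.6, 187, 281, 494 and 388 CPM. In marked cells, then, these 2 genes were at their lowest in bin 1 and rose towards mitosis. In bin 1, where S-list genes led, Hist1h1c and Hist1h2ac were below their level in unmarked cells of the same library. This was not particular to them. The sum of all members was also below its level in unmarked cells there, and so was set A in the cKIT+ but not in the cKIT- library.

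**Figure D4:**
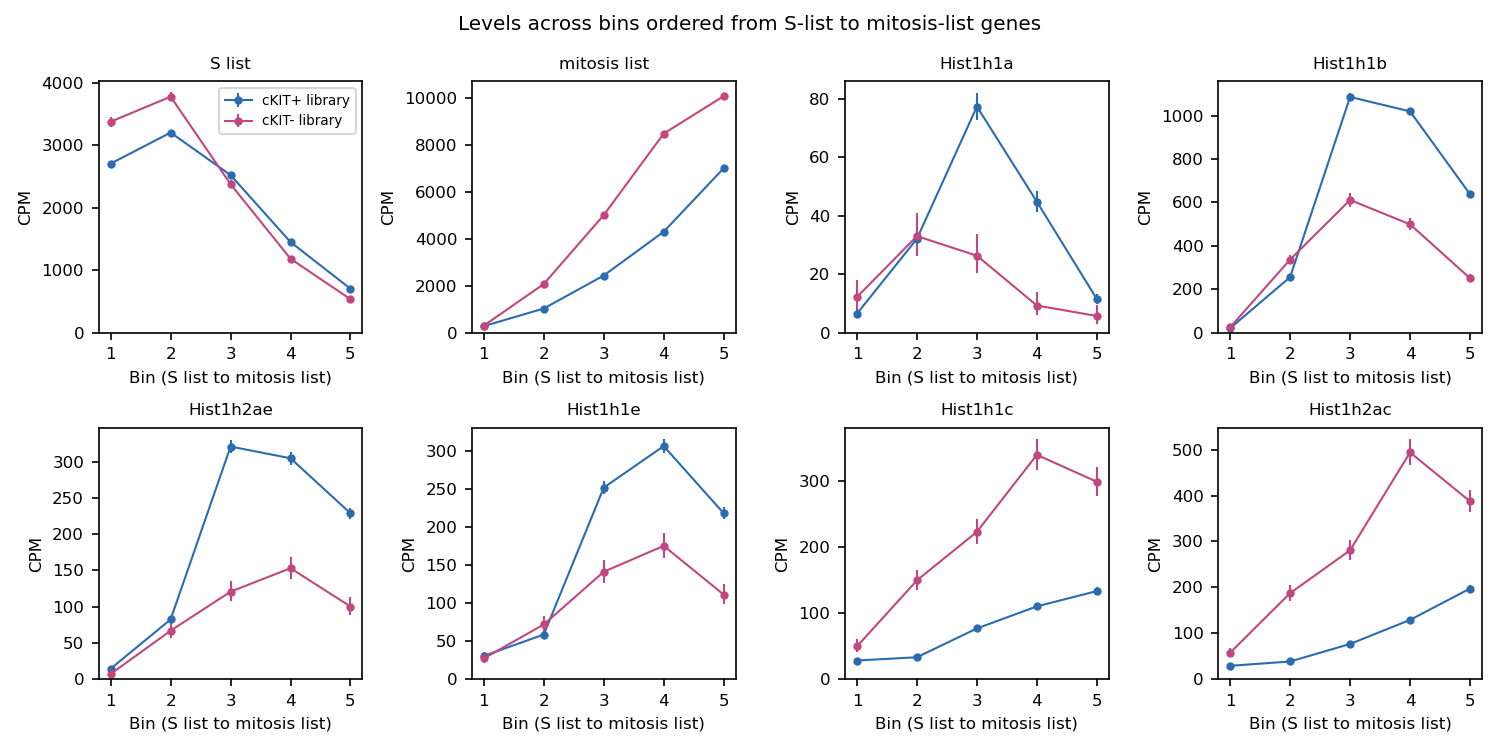
Levels in CPM (each axis from 0) across the 5 bins of marked cells ordered from S-list to mitosis-list genes, for both libraries, with 95% intervals. Hist1h1b is highest in bin 3 in both libraries, whereas Hist1h1c and Hist1h2ac are highest in bin 5 of the cKIT+ and bin 4 of the cKIT- library. The bins were cut within each library and are not matched between them.

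Between the libraries as a whole, 48 members had enough UMIs to be compared (at least 100 in all and a mean of at least 1 CPM). Of these, 9 (18.8%) were at least 2-fold higher in the cKIT+ library, against 10.6% of 11331 genes, and 6 (12.5%) were at least 2-fold higher in the cKIT- library, against 9.55%. The median ratio was 1.03 against 1.00 for all genes, so the members did not lean to either library by their median. At 4-fold there was 1 member on the cKIT+ side (background 3.04%) and 0 on the cKIT- side (background 2.42%). The ones higher in the cKIT+ library were Hist1h1b, Hist1h1a, Hist1h2ae, Hist1h2ab, Hist1h2ai, Hist1h3c, Hist1h3e, Hist1h3f and Hist1h4h. All belong to set A, which holds 42 of the 48 members with at least 100 UMIs in the cKIT+ library. The ones higher in the cKIT- library were Hist1h1c and Hist1h2ac of set C and Hist1h2be, Hist2h3c1, Hist2h4 and Hist1h4j of set A.

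Hist1h1b lay at 487 CPM (483 to 492) in the cKIT+ and 187 CPM (181 to 192) in the cKIT- library and was 2.61-fold (2.53 to 2.69) higher in the former. Hist1h2ae lay at 156 and 51.2 CPM (3.05, 2.87 to 3.24) and Hist1h1a at 27.8 and 10.1 CPM (2.75, 2.40 to 3.16). Hist1h3f had the largest ratio, 4.68 (3.05 to 7.55), from 410 and 22 UMIs, but only 14.8% of its stretches were unique to it. On the other side, Hist1h1c lay at 76.0 and 211 CPM, 2.77-fold (2.67 to 2.88) higher in the cKIT- library, and Hist1h2ac at 89.7 and 185 CPM, 2.07-fold (1.99 to 2.15) higher. Hist2h4, an H4 gene of the Hist2 cluster, lay at 8.54 and 26.6 CPM, 3.11-fold (2.80 to 3.47) higher there. Hist1h1b thus led the linker histones in the cKIT+ library and Hist1h1c in the cKIT- library. Hist1h1b gave 62.9% and Hist1h1c 9.82% of the family's UMIs in the cKIT+ library against 34.7% and 39.2% in the cKIT- library. Hist1h1c was not second in the cKIT+ library, where Hist1h1e had 13714 UMIs against 6928. The reads of Hist1h1e are hard to assign, as given above.

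The share of marked cells differs between the libraries, so the comparison was repeated within marked cells. There, 3 of the 48 members were at least 2-fold higher in the cKIT+ library, against 10.6% of the same 11331 genes. All 3 were among the 9 named above, namely Hist1h2ae at 2.20, Hist1h1a at 2.07 and Hist1h3f at 3.29 (2.12 to 5.37). Hist1h1b fell under the limit at 1.82 (1.77 to 1.88), and Hist1h2ak was level at 1.01 (0.964 to 1.05). On the cKIT- side there were now 13 of the 48 members, against 7.18% of all genes, among them Hist1h2ac at 2.86-fold, Hist1h1c at 2.78-fold, Hist2h4 at 4.11-fold, Hist1h2be at 2.71-fold, Hist1h3d at 2.37-fold and Hist1h1d at 2.11-fold. In unmarked cells Hist1h1c was 3.07-fold higher in the cKIT- library and Hist1h2ac 1.18-fold. The difference in Hist1h1c was thus about as large in either class of cells.

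Marked cells of the 2 libraries also differ in their place in the cycle, so they were set side by side within 5 fixed ranges of the mitosis-list share, each 20 percentage points wide. The ranges held 1038, 607, 601, 626 and 966 cKIT+ cells and 250, 114, 131, 161 and 447 cKIT- cells. Hist1h1b was highest from 40 to 60% in the cKIT+ library, at 1126 CPM. In the cKIT- library it was highest from 60 to 80%, at 600 CPM, close to its 565 CPM from 40 to 60%. From 80 to 100%, Hist1h1c was highest in both libraries, at 133 and 321 CPM, and so was Hist1h2ac, at 188 and 441 CPM. Hist1h1c was higher in the cKIT- library in every range, by 2.09 to 3.04 times, and so was Hist1h2ac, by 2.20 to 3.61 times. Hist1h2ae was higher in the cKIT+ library by 1.91 to 3.12 times. Hist1h1e was higher there by 1.63 to 2.27 times in the upper 4 ranges, while in the first, at 1.10 (0.843 to 1.45), the interval included 1. Hist1h1b was lower in the cKIT+ library in the first range, at 0.663, and higher in the other 4, at 1.70 to 1.99. Hist1h2ak lay at 0.910 to 1.48. With only cells that carried basophil genes at 1% or more and markers of other lineages under 5%, the ranges were 1.85 to 2.59 times for Hist1h1c, 1.76 to 3.03 for Hist1h2ac, 2.14 to 3.17 for Hist1h2ae and 1.97 to 2.63 for Hist1h1b in the upper 4, with 0.929 (0.712 to 1.22) in the first. Hist1h1a was lower in the cKIT+ library in the first of these ranges, at 0.533 (0.337 to 0.858), and higher in the other 4, at 1.47 to 2.92. Hist1h1c, Hist1h2ac and Hist1h2ae thus kept their direction in all 5 ranges of these cells, and Hist1h1b and Hist1h1a did not.

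Prss34, a protease gene of the basophil lineage, lay at 11081 CPM in the cKIT+ and 40691 CPM in the cKIT- library and was used to order cells by its share of UMIs, under 0.1%, from 0.1 to 1%, from 1 to 4% and at least 4%. The share of marked cells rose with it, from 54.4 over 65.6 and 77.4 to 83.6% in the cKIT+ library and from 4.23 over 5.13 and 40.7 to 65.6% in the cKIT- library. All members together stood at 1173, 1444, 2017 and 2929 CPM in the cKIT+ library and at 537, 440, 1178 and 1711 CPM in the cKIT- library. Within marked cells the order was kept, with 1480, 1714, 2301 and 3260 CPM and with 916, 985, 1820 and 2090 CPM. Unmarked cells showed no such order, at 338, 415, 401 and 317 CPM and at 493, 379, 449 and 566 CPM. The first 2 bins of the cKIT- library held only 60 and 16 marked cells.

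Hist1h1b in marked cells stood at 431, 542, 803 and 1089 CPM across the bins of the cKIT+ library and at 198, 118, 326 and 350 CPM across those of the cKIT- library. Hist1h1c in marked cells of the cKIT+ library went from 56.1 over 74.2 and 92.9 to 161 CPM, and Hist1h2ac from 57.5 over 94.9 and 127 to 211 CPM. In unmarked cells of the cKIT- library, where it was most abundant, Hist1h1c stood at 223, 149, 164 and 209 CPM, with no order. Hist1h2bc in the same cells stood at 8.43, 3.72, 22.2 and 63.4 CPM, the highest in cells with at least 4% Prss34, while in unmarked cKIT+ cells it stood at 23.9, 41.2, 39.4 and 26.1 CPM. Comparing the highest with the lowest bin in marked cells, set A differed by 2.13 times in the cKIT+ and 2.18 times in the cKIT- library, and sets B and C by 2.76 and 2.62 times. In unmarked cells the ratios were 0.853 and 0.942 for set A and 1.03 and 1.26 (1.17 to 1.36) for sets B and C. The last of these was 0.954 without cells that carried 0.5% or more of other lineages' markers.

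**Figure D5:**
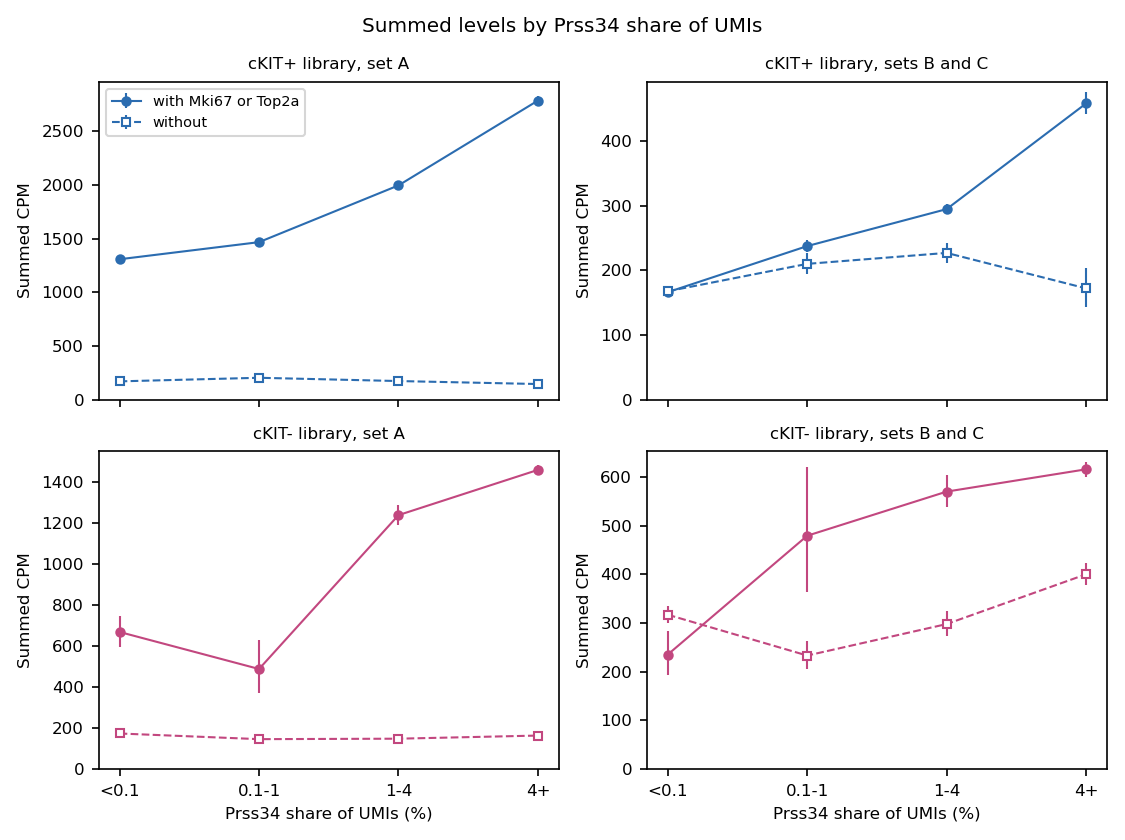
Summed levels in CPM (each axis from 0) by Prss34 share of UMIs, for set A and for sets B and C, in marked and unmarked cells of each library with 95% intervals. In marked cells both sums are highest at 4% or more, with 2787 and 458 CPM in the cKIT+ library, whereas set A stays between 145 and 203 CPM in unmarked cells of that library.

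UMIs of clustered histone genes were also read in cells with genes of other lineages. In the cKIT+ library, 36 marked cells with red cell genes reached 3994 CPM for all members, with Hist1h1b at 1652 CPM and Hist1h2bc at 87.1 CPM. In 25 unmarked cells of that kind Hist1h2bc lay at 127 CPM, from 11 UMIs. The 279 marked cells with neutrophil genes had Hist1h1b at 304 CPM and Hist1h2ac at 24.1 CPM, and 145 unmarked ones had 128 CPM of all members. Marked cells with basophil genes had Hist1h1b at 787 CPM and Hist1h2ac at 135 CPM. Hist1h2bc was also high in the 68 unmarked cKIT- cells with genes of granulocyte and monocyte progenitors, at 139 CPM, against 41.0 CPM in the like cells of the cKIT+ library. The B cell and dendritic cell groups can share cells. Unmarked cKIT- cells with B cell or dendritic cell genes had 144 and 121 CPM of all members, with Hist1h2ac at 8.12 and 1.48 CPM against 80.8 CPM in unmarked cells with basophil genes. What part of such low values came from free RNA was not tested.

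The factors that make and bind histone mRNA differed less than the members between marked and unmarked cells, by their medians. Of 17 such genes, 15 were compared between the libraries and 0 were past 2-fold in either direction, against 10.6% and 9.55% of all genes, with a median ratio of 1.07. In marked against unmarked cells 0 of 16 were past 2-fold higher in the cKIT+ library (4.23% of all genes) and 3 of 15 in the cKIT- library (8.97% of all genes), with medians of 1.26 and 1.52. Slbp, which encodes the stem-loop binding protein, was 1.73-fold and 2.24-fold higher in marked cells, and lay at 174 and 259 CPM in the libraries. Npat, whose product activates histone transcription, was 1.42-fold and 1.84-fold higher, and Eri1, an exonuclease that trims the ends of histone mRNA, 1.66-fold and 3.13-fold. Slbp was highest in bin 3 of the cKIT+ library, at 266 CPM, and in bin 2 of the cKIT- library, at 559 CPM, and was lowest in bin 5 of both, at 71.7 and 76.6 CPM.

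Histone chaperones, which carry new histones to DNA, were past 2-fold in marked cells in 3 of 17 genes in the cKIT+ library and in 7 of 17 in the cKIT- library, where 4.23% and 8.97% of all genes were. The 3 were Asf1b (11.3-fold), Hjurp (7.08-fold) and Chaf1a (2.26-fold). Between the libraries 2 of 17 were at least 2-fold higher in the cKIT+ library, against 10.6% of all genes, Npm1 at 3.06 and Ssrp1 at 2.24. Of the histone genes outside the clusters, 3 of 11 were past 2-fold in marked cells of the cKIT+ library, against 4.23% of all genes. These were H2afz at 2.63, H2afx at 7.47 and the centromeric Cenpa at 8.37. In the cKIT- library 5 of 10 were, against 8.97% of all genes. H3f3b, which encodes the replacement histone H3.3, was level, at 1.07 and 0.966. H1f0, which encodes the linker histone H1.0 of cells that leave the cycle, was 1.55-fold and 1.91-fold higher in marked cells and lay at 160 and 285 CPM in the libraries.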

How the data were processed

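The deposited files hold unnormalized UMI counts for every gene in every cell, for 1 single-cell library of E-cadherin+cKIT+ and 1 of E-cadherin+cKIT- bone marrow cells, made with Cell Ranger 3.0.2 against mm10 per the labels. The labels name version 2 of the 10x kit and the methods version 3. The annotation release is not given in the sources used here. The members and gene lists were chosen with earlier results of these data known.

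The counts were filtered per library as in the study: genes seen in at least 40 cells (used for the cell filter) and cells outside the top and bottom 1% of genes per cell and the top 1% of UMIs. Levels are summed UMIs over total UMIs of the cells concerned, in CPM. Sums carry exact Poisson and ratios and shares exact binomial 95% intervals. A gene counted as different at a CPM ratio of at least 2, or of at least 4 where stated. Genes named are the 25 members with the largest summed CPM, members past 4-fold between the libraries and fixed pathway lists, and other members named beside counts were picked with their values in view.

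Results were recomputed with other choices of the cell filter, doublets (Scrublet in Scanpy 1.11.5, kept in the values given), the UMI minimum, the scaling (TMM of edgeR 4.0.16, DESeq2 1.42.0 size factors), the marking of cells, thinning to 2000 UMIs per cell and cells with 0.5% or more of their UMIs from markers of other lineages. Leaving out cells with 5% or more, UMIs per cell and the matched ranges of the mitosis-list share were added after seeing the data. The fold limit was also run on simulated counts with counting error only, which cannot show how far libraries of the same sort differ. Transcripts came from GENCODE and promoters from RefSeq. Scripts ran in Python 3.11.15 and R 4.3.3.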

Additional observations from a re-analysis of the deposited data

Results flagged for a closer look

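Hist1h4d, an H4 gene, was higher in the cKIT+ than in the cKIT- library among marked cells, at a ratio of 1.08 (1.01 to 1.17), and lower among unmarked cells, at 0.779 (0.632 to 0.961). It was singled out because the direction was opposite in the 2 classes of cells. Hist1h3d, an H3 gene, was lower in the cKIT+ library among marked cells, at 0.421 (0.393 to 0.452), and higher among unmarked cells, at 1.32 (1.01 to 1.74), and was singled out in the same way. With 1 library for each sort the difference was not tested for either gene.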

How the results depend on the processing

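No paired analysis was possible because each population has 1 library and the labels give no replicate numbers. Of 176 recomputed main results, 130 stayed within their limits, 45 moved and 1 reversed, and of 650 recomputed ratios of named members 584 stayed, 64 moved and 2 reversed. The ratio of the libraries over all members, 1.20, was 1.12 without the 10 most abundant genes in the totals. It was 2.70 in UMIs per cell, a measure that also moves with sequencing depth. The cKIT+ count of 42 members at least 2-fold higher in marked cells was 26 at a minimum of 300 UMIs, 22 without cells with 0.5% or more of other lineages' markers and 13 thinned, where fewer members reach the minimum. The 0.5% limit left out 4727 of 6479 cKIT+ cells and 1005 of 3662 cKIT- cells, and the 5% limit 647 and 124. Values at 0.5% thus rest on a small part of the cKIT+ library. With 3 or more Mki67 plus Top2a UMIs, 1 member, Hist1h2bc, was at least 2-fold lower. The cKIT- count of 24 was 41, 52 and 14 at minimums of 30, 10 and 300 UMIs and 13 thinned. For these settings of either library, the number of members compared and the share of all genes are not given. A changed count therefore need not be a changed share. At low minimums, members that pass only through the marked cells had to be high there. The summed ratio of marked to unmarked cells, 5.30 in the cKIT+ library, was 5.49 with TMM, 5.51 with DESeq2 size factors, 5.54 without cells with 0.5% and 5.14 without cells with 5% of other lineages' markers, 6.15 with 3 or more UMIs, 4.57 thinned and 10.8 in UMIs per cell. That of the cKIT- library, 4.01, was 4.37 without the cells with 0.5%, 4.66 with 3 or more UMIs, 4.23 thinned and 10.01 in UMIs per cell.

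Between the highest and lowest Prss34 bins of the cKIT+ library, set A (2.49) stood at 2.42 with no cell filter, 2.65 without the 10 most abundant genes and 3.74 without cells with 0.5% of other lineages' markers. Sets B and C (2.56) stood at 2.72 without the 10 genes, 2.29 at 0.5% and 2.36 at 5%. In the cKIT- library set A (5.06) stood at 4.30 with no cell filter, 5.39 without the 10 genes and 5.80 at 0.5%, and sets B and C (1.82) at 1.94, 1.54 at 0.5% and 1.68 at 5%. In marked cKIT+ cells set A (2.13) stood at 2.28 without the 10 genes and 2.66 at 0.5%, and sets B and C (2.76) at 2.95, 2.44 at 0.5% and 2.55 at 5%. In marked cKIT- cells set A (2.18) stood at 1.71 with no cell filter and 3.09 at 0.5%, and sets B and C (2.62) at 1.97 at 0.5%. In unmarked cells, sets B and C stood at 0.662 at 0.5% in the cKIT+ library and reversed to 0.954 in the cKIT- library. Bin 4 over bin 1 of the cell cycle order was 16.5 with no cell filter for set A of the cKIT+ library, and 4.19 and 10.3 at 0.5% for sets B and C of the cKIT+ and cKIT- libraries. Between the libraries, Hist1h4i (0.853) and Hist1h2bc (0.774) reversed to 1.05 and 1.48 at 0.5%. Of the ratios of named members, 16 moved by over 1.5 times with thinning, 6 at 0.5% and 1 without the highest doublet scores. The cause was not tested. Depth limits the members under 100 UMIs, which are 19 in the cKIT+ library.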
